A study of Mus musculus with 3072 samples.

Results

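Microglia from the cortex of C57BL/6-ApoeKO mice were set against microglia from the cortex of C57BL/6 mice, so that the loss of Apoe could be read in brains that carry no amyloid transgene. Both groups came from male mice aged 18 months. The knockout mice lack Apoe throughout the body from birth, and the C57BL/6 mice are the control strain of that line. No transgene and no treatment is named for either group. All cells with counts were taken by the genotype, tissue and age on their labels: 639 of the 1878 cells with counts in the series, of which 48.98% were knockout cells.

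The series as a whole profiled single microglia, sorted alive as CD11b-positive and DAPI-negative cells and read with a modified SmartSeq2 protocol, in mice with and without Apoe and with and without the amyloid-forming APP/PS1 transgenes. Each sample is 1 well of a plate. The APP/PS1-ApoeKO line was bred from APP/PS1 mice and an Apoe-null C57BL/6 breeder, and its cells at 18 months and the APP/PS1 cells at 17 months, from cortex and hippocampus, appear below beside the cells without amyloid. Of APP/PS1-ApoeKO cortex only the cells of lane mglia34 were used, since the labels give no read total for those of mglia33, and APP/PS1 cells at 18 months were not analysed here. Because no label ties a well to a mouse, a group counted as 1 sample, and no test between groups was possible.

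Apolipoprotein E is the main lipid carrier that glia secrete in the brain. It takes up cholesterol and phospholipid from the exporters Abca1 and Abcg1 and hands them on to cells with receptors of the LDL receptor family. Astrocytes make most of it at rest. Microglia make it in large amounts once they take on the activated state seen around amyloid plaques, which depends on the receptor Trem2, for which lipid particles with apolipoprotein E are ligands.

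The knockout cells held 198704815 reads, 68354 to 1106724 per cell, and the C57BL/6 cells 241536311 reads, 116605 to 1320640 per cell. Median genes per cell were 2246 in knockout and 2265 in C57BL/6 cells, and ribosomal RNA took a median of 8.62% of a knockout cell's reads and 8.39% of a C57BL/6 cell's. Both groups were spread over the lanes mglia37 and mglia38 (50.16% of the knockout cells and 49.69% of the C57BL/6 cells were in mglia37). The plate number in the wells' titles splits each group into 4 plates, 1 and 2 in the first lane and 3 and 4 in the second. Lanes and plates were technical parts of a group and not mice. Ribosomal RNA leaned opposite ways in the lanes: 8.09% in knockout against 9.70% in C57BL/6 cells in mglia37, and 9.40% in knockout against 7.59% in C57BL/6 cells in mglia38. The microglial label held in both groups. The 16 homeostatic markers together reached 71262 RPM in knockout and 69633 RPM in C57BL/6 cells (reads of the gene per 1000000 reads of the group).

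Most markers of other cells were scarce. Of the 12 T and NK cell markers 2 had any read, and Cd3e, Cd8a and Cd4 had 0 in both groups. Neutrophil markers summed to 0.0453 RPM in knockout and 0.600 RPM in C57BL/6 cells, with Ly6g at 0 in both, and monocyte markers to 3.38 RPM in knockout and 23.4 RPM in C57BL/6 cells, with Ly6c2 at 0. Ccr2 made most of the monocyte sum, with 2.75 RPM in knockout and 21.9 RPM in C57BL/6 cells. Border-associated macrophage markers summed to 12.9 RPM in knockout and 6.71 RPM in C57BL/6 cells, with Lyve1 and Ms4a7 at 0. Ighm and Cd79b gave nearly all of the B cell sum (667 RPM in knockout, 610 RPM in C57BL/6), while Ms4a1 and Pax5 had 0 reads. Siglech, which microglia also express, gave nearly all of the dendritic cell sum (4713 RPM in knockout, 3944 RPM in C57BL/6). Neuron markers stood at 72.7 RPM in knockout and 28.1 RPM in C57BL/6 cells. Camk2a, a kinase abundant in neurons, gave 54.7 RPM of the knockout sum and 15.8 RPM of the C57BL/6 sum. The astrocyte sums were 357.2 RPM in knockout and 299.6 RPM in C57BL/6 cells. The oligodendrocyte sums were 213.9 RPM in knockout and 162.5 RPM in C57BL/6 cells. Of the 9 oligodendrocyte markers 5 had reads, and all 5 were higher in the knockout, 4 of them in both lanes and 1 at least 2-fold. In 3 of them 1 group reached 20 RPM with reads in 10% or more of its cells. Mog, Olig1 and Olig2 were at 0. Only 1 cell, of C57BL/6, had 3 or more markers of another blood or border cell type at 10 RPM or more.

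Apoe itself, the targeted gene (chromosome 7, 19696109 to 19699188, minus strand, GRCm38), was nearly gone from the knockout cells. On titled plates 1 to 4 it had 0, 3.99, 8.63 and 0.0189 RPM in knockout cells, against 344.9, 276.9, 697 and 591 RPM in C57BL/6 cells. No knockout plate came near a C57BL/6 plate. Pooled, Apoe was 163.7-fold lower in the knockout (95% interval 150.9 to 177.8, which covers counting error only and treats each read as an independent count). With every cell thinned to 100000 reads, which left out 5 knockout cells and 0 C57BL/6 cells, 1.30% of knockout cells (exact binomial interval 0.355 to 3.29) and 28.8% of C57BL/6 cells (23.98 to 34.1) had an Apoe read. The knockout share gives the rate at which reads of the deleted gene were still assigned to these wells. Without amyloid, fewer than 1 in 3 cells of the control showed the transcript at this depth. The 5 knockout cells with most Apoe reads held 100% of them.

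Ratios below are knockout over C57BL/6. A log2 ratio has 0.5 RPM added to both levels. Genes were considered if 1 group reached 20 RPM with reads in 10% or more of its cells. They were called if the pooled sums differed 2-fold or more and each lane alone did so in the same direction. Of 6017 genes considered, 74 were called higher in the knockout (1.23%) and 59 lower (0.981%), Apoe included. The pooled sums alone put 2.53% of genes past 2-fold on the higher side and 2.04% on the lower, and 78 and 64 of these genes did not repeat in both lanes. Within 1 lane far more passed 2-fold: 5.10% higher and 4.35% lower in mglia37, and 4.77% and 4.17% in mglia38. In 16 genes the 2 lanes passed it in opposite directions. Plates of the 2 groups did not overlap for 56 of the genes called higher and 39 of those called lower. The share over all genes considered is not given here. A lack of overlap, stated for single genes below, thus describes those genes and does not set them apart from others. The median log2 ratio of all genes considered was 0.02. Across these 6017 genes the log2 ratios of the lanes correlated with a Pearson coefficient of 0.466, a description of genes that share libraries.

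**Figure D1:**
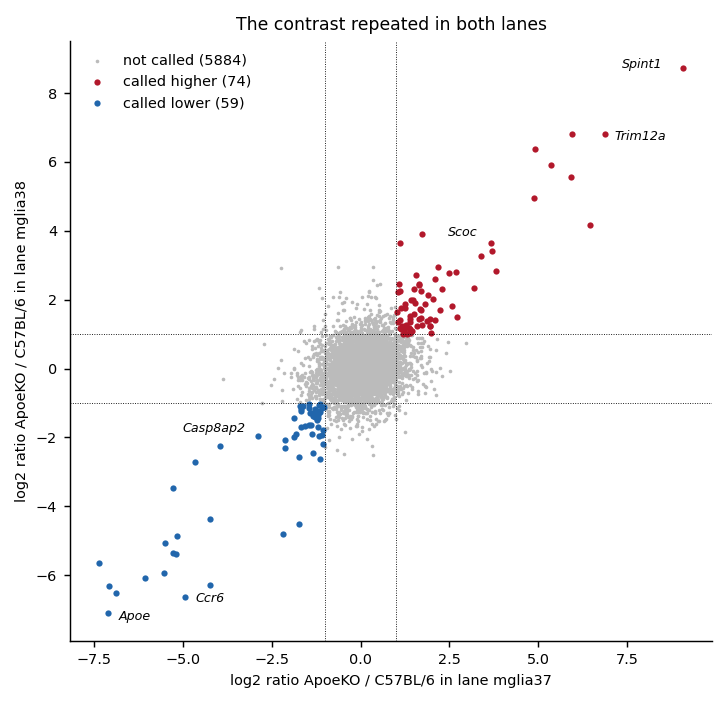
Log2 ratio of C57BL/6-ApoeKO over C57BL/6 in lane mglia37 (x axis) against lane mglia38 (y axis) for the 6017 genes considered, 1 point per gene; dotted lines mark a 2-fold difference. The 74 genes called higher (red) and the 59 called lower (blue) include a sparse tail far from the grey cloud, from Apoe at -7.11 in both lanes to Spint1 at 9.08 and 8.73.

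Spint1, a membrane inhibitor of serine proteases such as hepsin and matriptase, stood first among the higher genes. It lies on chromosome 2 from 119237362 to 119249527. Its level was 267.3, 273.5, 186.6 and 234.2 RPM on the 4 knockout plates, against 0 RPM on all 4 C57BL/6 plates. The groups did not overlap, and no read of it was found in any C57BL/6 cell. With a floor of 3 reads over the C57BL/6 group, it was at least 19347-fold higher if each read is an independent count. Reads were not independent, since thinned knockout cells with a read averaged 695 RPM of Spint1. The bound thus covers counting error only and is no limit over cells. A read of Spint1 was present in 33.1% of thinned knockout cells (27.9 to 38.7), against 0% of thinned C57BL/6 cells, where no read allows a share of up to 0.920%. The other groups of the series did not split by Apoe here: Spint1 had 210.5 RPM in APP/PS1-ApoeKO and 151.3 RPM in APP/PS1 cortex, and in hippocampus 208.5 RPM in APP/PS1-ApoeKO against 139.03 RPM in APP/PS1 cells.

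A block of tripartite motif genes on chromosome 7 was almost silent in C57BL/6. These genes encode antiviral ubiquitin ligases, of which the Trim5 branch recognises retroviral capsids in primates. Trim12a had 66.8, 48.4, 53.9 and 58.2 RPM on the knockout plates, against 0, 0, 0.0179 and 0 RPM on the C57BL/6 plates, where its level rests on a single read. Trim5 averaged 23.2 RPM in knockout and 0.286 RPM in C57BL/6 cells, an 81.3-fold higher level (64.1 to 104.7), and Trim30d 49.5 RPM in knockout and 1.37 RPM in C57BL/6 cells, 36.2-fold higher (32.4 to 40.5). Plates of the 2 groups did not overlap for any of the 3. Trim12c had a log2 ratio of -0.41 and Trim30a of 0.22, so neighbours of the same family did not follow. These genes have near-identical copies, and the sources used here do not say how reads shared between copies were counted. Of the 9 members of the Trim and Schlafen families that were considered, 4 were called higher and 1 lower, where 1.23% and 0.981% of all genes considered were. Trim5, Trim12a, Trim30d and Slfn2 passed the filter only through the knockout, where they were high, and Slfn9 only through C57BL/6. The count of called members is thus partly set by the filter. The median log2 ratio of the 9 was 0.22 (0.05 in mglia37, 0.37 in mglia38).

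On chromosome 8 the neighbours Clgn and Scoc were both higher. Clgn, a chaperone of the endoplasmic reticulum known from sperm, had 70.1, 4.63, 67.7 and 45.3 RPM on the knockout plates, against 0, 0.378, 0 and 0 RPM on the C57BL/6 plates. Scoc, a short coiled-coil protein of the Golgi, had 232.5, 163.5, 190 and 196.8 RPM on the knockout plates, against 14, 17, 18.6 and 12.2 RPM on the C57BL/6 plates. Every knockout plate was above every C57BL/6 plate for both genes, though Clgn on knockout plate 2 was far below the other 3. Scoc was 13.03-fold higher (12.6 to 13.5), and 72.7% of thinned knockout cells had a read of it against 15.95% of C57BL/6 cells.

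Hpgd, which inactivates prostaglandins by oxidising their 15-hydroxyl group, was among the most abundant genes that differed. It had 459, 435, 435 and 394 RPM on the knockout plates, against 22.7, 41.1, 51.4 and 63.3 RPM on the C57BL/6 plates. The knockout plates lay close together and far above the others, and the ratio was 9.45 (9.27 to 9.64). Of the thinned cells 66.9% had a read in the knockout (61.3 to 72.1), against 11.04% in C57BL/6 (7.86 to 14.96), and among cells with a read the mean level was 659 RPM in knockout and 382.2 RPM in C57BL/6 cells. Alox5, the lipoxygenase that starts leukotriene synthesis, went the other way, with 59.8, 79.6, 85.8 and 41.3 RPM in knockout and 178.7, 203.01, 197.7 and 193.6 RPM in C57BL/6 cells. It was 2.94-fold lower (2.89 to 3.00), without overlap of plates. No other of the 11 prostaglandin and leukotriene genes considered passed 2-fold, and their median log2 ratio was -0.09.

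**Figure D2:**
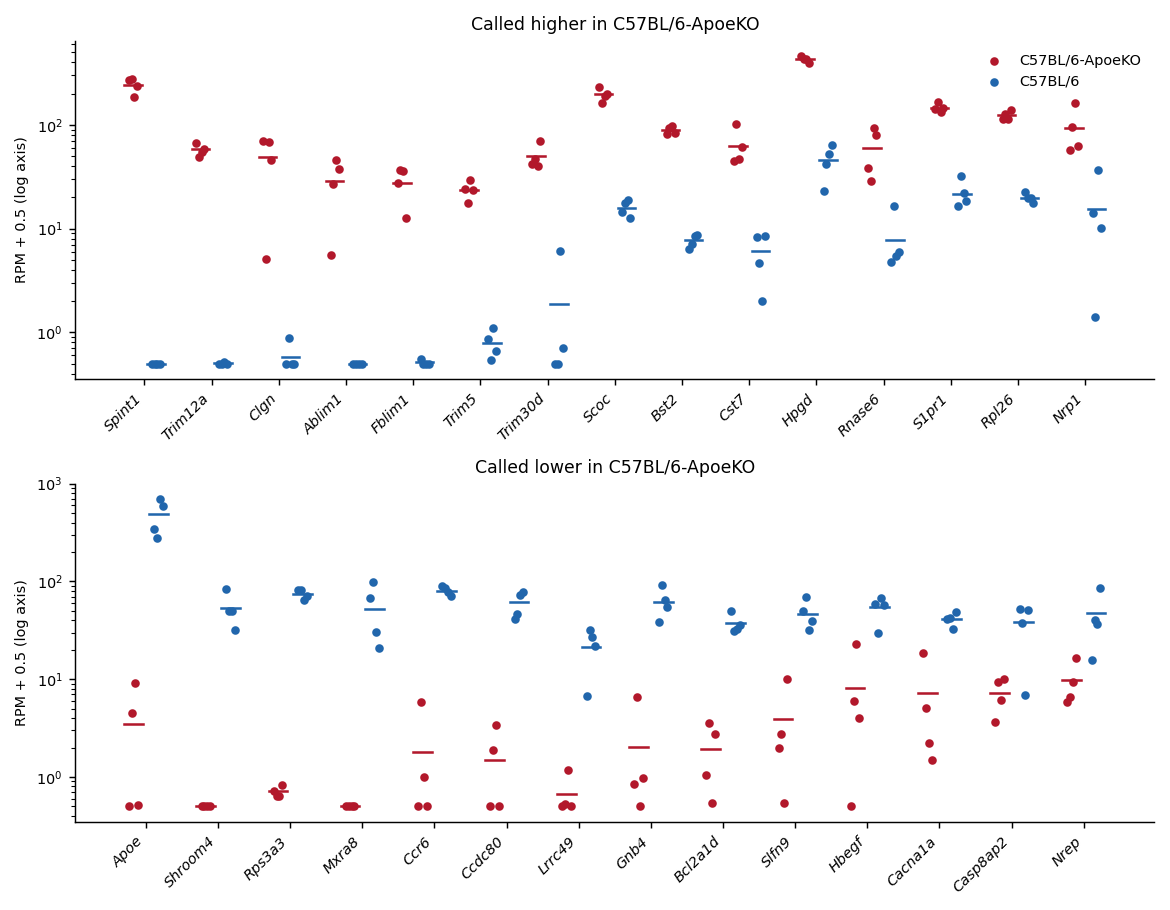
Level of each named gene in RPM + 0.5 (log axis) on the 4 titled plates (points) and in the pooled group (bar), C57BL/6-ApoeKO in red on the left of each pair and C57BL/6 in blue on the right; upper panel, the 15 genes with the largest log2 ratio among those called higher; lower panel, 14 of the 15 with the smallest among those called lower. Points at 0.5 are plates with 0 reads, such as all 4 C57BL/6 plates of Spint1 and all 4 knockout plates of Shroom4.

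Surface receptors and secreted proteins made up several of the remaining higher genes. S1pr1, the receptor for sphingosine 1-phosphate, a lipid that lipoproteins carry, had 141.7, 165.9, 131.8 and 144.5 RPM on the knockout plates, against 16.1, 31.4, 21.4 and 18.0 RPM on the C57BL/6 plates, a 6.83-fold higher level (6.63 to 7.04). Nrp1, a coreceptor for semaphorins and VEGF, was 6.24-fold higher but uneven, at 56.96 to 162.2 RPM on knockout and 0.906 to 36.2 RPM on C57BL/6 plates. Endothelial cells express both receptors too. The 10 endothelial and mural markers summed to 28.7 RPM in knockout and 13.3 RPM in C57BL/6 cells. Of the 4 with at least 1 RPM on average, 3 were at least 2-fold higher in the knockout and 0 at least 2-fold lower. Of these 4, 0 were higher in both lanes. Cldn5, the tight-junction protein of brain endothelium, had 0.00503 RPM in knockout and 0.406 RPM in C57BL/6 cells. Rgs5 and Kcnj8 were at 0 in both groups, and 6 of the 10 markers were at 0 in C57BL/6 cells. The part of endothelial and mural cells in these results was not tested. Cst7, which encodes cystatin F, an inhibitor of lysosomal cathepsins and a marker of plaque-associated microglia, had 43.9, 101.3, 46.3 and 61.2 RPM on the knockout plates, against 7.84, 4.21, 1.51 and 8.06 RPM on the C57BL/6 plates. It was read in 12.01% of thinned knockout cells and 2.45% of C57BL/6 cells. Rnase6, an antimicrobial ribonuclease, was 8.16-fold higher (7.76 to 8.58). The actin-linked LIM proteins Ablim1 and Fblim1 had 27.99 and 27.2 RPM in knockout cells, against 0 and 0.0124 RPM in C57BL/6 cells. Rpl26, a protein of the large ribosomal subunit with many processed copies in the genome, had 113.5, 125.8, 113.4 and 137.8 RPM on the knockout plates, against 21.9, 19.2, 19.2 and 17.2 RPM on the C57BL/6 plates, and reads shared with those copies could not be checked.

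Among the lower genes, Shroom4, a regulator of the actin cytoskeleton on the X chromosome (6399854 to 6637448), mirrored Spint1. It had 0 RPM on all 4 knockout plates, against 83.7, 48.96, 49.5 and 31.1 RPM on the C57BL/6 plates. Against a floor of 3 reads over the knockout group, its level there was lower by at least 3469-fold if each read is an independent count. As for Spint1, this bound covers counting error only and is no limit over cells. No thinned knockout cell had a read, which allows a share of up to 0.974%, against 15.6% of C57BL/6 cells. It had 0 reads in all 4 APP/PS1 groups as well, with Apoe or without. Mxra8, a membrane protein that several alphaviruses use as a receptor, also had 0 RPM on the 4 knockout plates, against 66.5, 99.3, 29.6 and 20.5 RPM on the C57BL/6 plates. It differs from Shroom4 in the other groups, with 0 RPM in APP/PS1-ApoeKO and 30.1 RPM in APP/PS1 cortex.

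Rps3a3, annotated as a processed pseudogene of a ribosomal protein inside Pde4d on chromosome 13, had 0.221, 0.138, 0.146 and 0.322 RPM in knockout and 80.8, 80.96, 64.5 and 69.8 RPM in C57BL/6 cells. The plates were tight in both groups, and the level was 348.9-fold lower (258.02 to 484). Its reads cannot be separated from those of near-identical copies. Ccr6, the receptor of the chemokine Ccl20, had 0, 5.32, 0.499 and 0 RPM on the knockout plates, against 90.1, 84.5, 76.6 and 70.04 RPM on the C57BL/6 plates, and was 62.1-fold lower (54.9 to 70.6). Ccdc80, a protein of the extracellular matrix, was 60.3-fold lower (1.00 RPM in knockout against 60.4 RPM in C57BL/6 cells), and Gnb4, a beta subunit of G proteins, 39.4-fold lower (1.53 RPM in knockout against 60.5 RPM in C57BL/6 cells).

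Cacna1a, the pore of the P/Q-type calcium channel and better known from neurons, was 6.19-fold lower. It had 18.2, 4.58, 1.73 and 0.984 RPM on the knockout plates, against 40.5, 41.9, 31.7 and 48.6 RPM on the C57BL/6 plates. The summed neuron markers stood at 72.7 RPM in knockout and 28.1 RPM in C57BL/6, most of it Camk2a in both groups. Of the 6 neuron markers with at least 1 RPM on average, 3 were higher in the knockout. The part of neurons in these levels was not tested. Hbegf, a ligand of the EGF receptor, had 0, 5.46, 22.7 and 3.52 RPM on the knockout plates, against 58.7, 29.5, 67.9 and 56.6 RPM on the C57BL/6 plates. Knockout plates stayed below C57BL/6 plates for Cacna1a and Hbegf, as they did for Lrrc49 (122.3-fold lower), Bcl2a1d (26.1-fold lower) and Slfn9 (13.4-fold lower); the last 2 have close paralogs. Plates overlapped for Casp8ap2 (5.61-fold lower) and Nrep (5.06-fold lower). As with Apoe, the few knockout reads of most of these genes came from few cells: the 5 richest cells held 100% of the Ccr6 and Ccdc80 reads and 94.8% of the Hbegf reads.

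Interferon-response genes were read more often in the knockout. Interferons signal through Jak kinases to a complex with Stat2 and Irf9, which switches on antiviral genes through a promoter element built on repeats of GAAA. Of the 24 genes listed, 7 were considered and all 7 lay above 0 in the pooled sums. Only 4 of the 7 were higher in both lanes. Of the 7, 2 were called (Bst2 and Rtp4), where 1.23% of all genes considered were called higher. Bst2 and Rtp4 passed the filter only through the knockout, where they were high. The median log2 ratio of the 7 was 0.22 (0.27 in mglia37, 0.37 in mglia38). That median moved with the plates, to 0.06 without titled plate 1, 0.33 without plate 2, 0.38 without plate 3 and 0.05 without plate 4. Most members were too rarely read to be considered. Over all 24, each of at least 1 RPM on average, 22 were higher, 16 of them in both lanes and 14 at least 2-fold, and 2 were at least 2-fold lower. The median log2 ratio was 1.38 (0.80 and 0.89 within the lanes), against 0.05 for the 12757 genes of that level. The shares of those 12757 genes that were higher or passed 2-fold are not given here, so only the medians can be compared.

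Bst2 (tetherin, a membrane protein that tethers virus particles to the cell they bud from) was steady over the plates. It had 81.8, 92.6, 97.7 and 83.6 RPM on the knockout plates, against 5.91, 6.55, 8.03 and 8.09 RPM on the C57BL/6 plates. There was no overlap, and 35.4% of thinned knockout cells (30.1 to 41.01) had a read against 13.5% of C57BL/6 cells (9.98 to 17.7). Rtp4, an interferon-induced chaperone of receptors, had 42.6, 67.1, 38.5 and 54.6 RPM on the knockout plates, against 9.68, 5.49, 29.2 and 6.62 RPM on the C57BL/6 plates. Oas1a, a sensor of double-stranded RNA, was 4.25-fold higher (18.0 RPM in knockout against 4.23 RPM in C57BL/6 cells), while the transducers Stat2 and Irf9 had log2 ratios of 0.25 and 0.07. The 2 lower members were Isg15, a ubiquitin-like modifier, at 0.710 RPM in knockout against 2.10 RPM in C57BL/6 cells, and Ifi44, an interferon-induced protein, at 4.56 RPM in knockout against 32.5 RPM in C57BL/6 cells.

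The rare members rested on few cells. Ifitm3, which blocks viral entry, had 52.1, 19.4, 37.1 and 51.4 RPM on the knockout plates, against 1.63, 10.99, 3.55 and 0.0276 RPM on the C57BL/6 plates. Its 5 richest cells held 65.97% of the knockout and 99.9% of the C57BL/6 reads. For Oasl2 the 5 richest cells held 91.5% of the knockout and 95.6% of the C57BL/6 reads. Without the 5 cells of each group with most reads of the list, the median over the 24 was 1.13 and 5 members lay below 0, Ifi44 lowest with 0 RPM in knockout against 18.2 RPM in C57BL/6 cells. Counted per cell, a thinned knockout cell had a mean of 2.19 of the 24 genes and a C57BL/6 cell 1.45. The plate means were 2.07, 2.03, 2.27 and 2.40 genes in the knockout, all above the 1.11, 1.55, 1.73 and 1.38 genes of the C57BL/6 plates. At least 4 of the genes were read in 18.2% of knockout cells (14.04 to 22.95), against 6.13% of C57BL/6 cells (3.79 to 9.32). Without Bst2 and Rtp4 these shares were 12.01% of knockout and 4.91% of C57BL/6 cells.

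**Figure D3:**
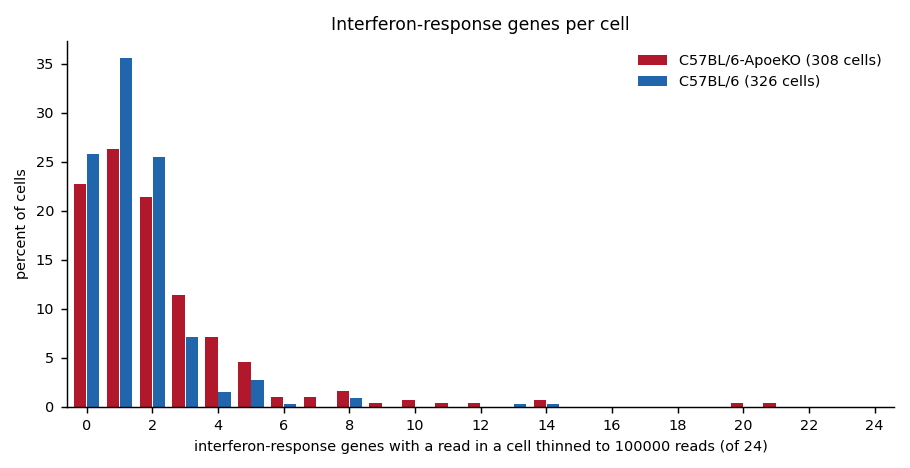
Percent of cells (y axis) by the number of the 24 interferon-response genes with at least 1 read in a cell thinned to 100000 reads (x axis), C57BL/6-ApoeKO in red on the left and C57BL/6 in blue on the right. Bars at 4 genes or more hold 18.2% of knockout and 6.13% of C57BL/6 cells, and the fullest cell has 21 genes in the knockout and 14 in C57BL/6.

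The promoters of the interferon genes are shown beside these levels because their shared element can be read in the sequence. Below are 250 bases before and 50 after the gene start for Bst2 and Ifit3, 2 interferon genes, and for Hpgd, which was higher in the knockout but is not one of them (RefSeq, GRCm38.p6; Bst2 at chr8:71537423-71537722, minus strand; Ifit3 at chr19:34583279-34583578, plus strand; Hpgd at chr8:56294302-56294601, plus strand). Capitals mark GAAANNGAAA on either strand.
Bst2: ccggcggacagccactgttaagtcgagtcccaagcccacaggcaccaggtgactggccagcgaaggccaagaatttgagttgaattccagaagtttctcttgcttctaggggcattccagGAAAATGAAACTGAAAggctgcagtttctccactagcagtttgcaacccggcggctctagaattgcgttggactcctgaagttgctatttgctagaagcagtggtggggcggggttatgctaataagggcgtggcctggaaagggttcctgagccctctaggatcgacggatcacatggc
Ifit3: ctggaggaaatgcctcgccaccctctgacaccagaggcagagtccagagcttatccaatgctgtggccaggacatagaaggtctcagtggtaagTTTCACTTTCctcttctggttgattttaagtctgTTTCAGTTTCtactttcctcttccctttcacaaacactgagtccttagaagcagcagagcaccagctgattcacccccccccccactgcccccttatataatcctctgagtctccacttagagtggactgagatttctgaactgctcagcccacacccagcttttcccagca
Hpgd: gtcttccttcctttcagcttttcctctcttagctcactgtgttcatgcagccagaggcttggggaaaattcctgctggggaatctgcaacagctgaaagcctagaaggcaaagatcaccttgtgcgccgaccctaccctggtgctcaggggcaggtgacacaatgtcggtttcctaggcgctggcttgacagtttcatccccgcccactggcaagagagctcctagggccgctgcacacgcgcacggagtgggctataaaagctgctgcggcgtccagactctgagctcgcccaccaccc
The Bst2 promoter held 2 overlapping matches, the first starting at -130, and that of Ifit3 held 2 separate matches on the opposite strand; the Hpgd window held none. Of the interferon genes, 17 had a promoter in the table, and 10 of them held a match (58.8%), against 3.99% of the 27025 genes in the table and 4.02% of the 4728 considered genes found there. Among genes called higher 7 of 58 held one (12.1%), and among genes called lower 2 of 36 (5.56%). A match is a run of letters and not a measured binding site.

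Glycolysis genes were higher in 12 of 14 considered members, 10 of them in both lanes, with a median log2 ratio of 0.42 (0.65 in mglia37, 0.31 in mglia38). Of the 14, 3 were at least 2-fold higher and 2 called, where 2.53% and 1.23% of all genes considered were. Aldoa, the aldolase, had 456, 430, 487 and 453 RPM on the knockout plates, against 168.7, 200, 236.4 and 168.4 RPM on the C57BL/6 plates, and was read in 62.7% of thinned knockout cells and 36.5% of thinned C57BL/6 cells. Hk1, the hexokinase that opens the pathway, was 2.84-fold higher (2.70 to 2.99), though its plates overlapped. Hk1 passed the filter only through the knockout, where it was high, so the count of called members is partly set by the filter. Gapdh had 421, 416, 366.1 and 361.95 RPM on the knockout plates, against 225.05, 220.6, 267.5 and 229.2 RPM on the C57BL/6 plates, and Eno1, the enolase, 242.1, 274.96, 188.95 and 218.03 RPM on the knockout plates, against 130, 108.04, 134.1 and 83.7 RPM on the C57BL/6 plates. These enzymes lay apart on all plates, as did Pfkl, a phosphofructokinase (109.2 RPM in knockout against 59.05 RPM in C57BL/6 cells). Gpi1, Slc2a1 and Tpi1 did not lie apart, with log2 ratios of -0.12, -0.08 and 0.04. A thinned knockout cell had a mean of 5.70 of the 16 genes and a C57BL/6 cell 4.87. The mitochondrial respiratory chain showed little of this, at a median of 0.05 over 14 members. Gapdh and other glycolysis genes have many processed copies, and reads shared with them could not be checked.

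The identity programme of resting microglia was level, with 1 exception. Over its 16 members the median log2 ratio was 0.00 (0.06 and -0.05 within the lanes). The fractalkine receptor Cx3cr1 stood at 11742 RPM in knockout and 12691 RPM in C57BL/6 cells, and the ADP receptor P2ry12 at 5781 RPM in knockout and 6564 RPM in C57BL/6 cells. Fcrls, an Fc receptor-like scavenger receptor, was called higher: 2679, 2792, 2715 and 3093 RPM on the knockout plates, against 1172, 1057, 1226 and 1221 RPM on the C57BL/6 plates. Its neighbour Fcrl1 was also called higher, 2.94-fold (2.86 to 3.01). The activated, plaque-associated list had 8 considered members, 6 of them higher, with a median of 0.21, and Cst7 alone passed 2-fold. Cst7 passed the filter only through the knockout, where it was high. Of the list's 16 members with at least 1 RPM on average, 12 were higher, 9 of them in both lanes and 5 at least 2-fold, and 1 was at least 2-fold lower. Their median was 0.41, against 0.05 for all genes of that level, for which such counts are not given here. The phagocytic receptor Axl was among the higher members (18.5 RPM in knockout against 3.25 RPM in C57BL/6 cells, with 84.9% of the knockout reads in 5 cells). At least 8 of the 20 listed genes were read in 12.99% of thinned knockout cells (9.44 to 17.3) and 6.44% of C57BL/6 cells (4.03 to 9.68). Cd63, Cd9 and Trem2 had log2 ratios of 0.54, 0.29 and 0.21, and Cd68 and Ccl6 lay just below 0.

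Lipid genes differed in parts. Sorl1, a sorting receptor of the LDL receptor family and an Alzheimer risk gene, had 25.8, 23.4, 45.5 and 77.1 RPM in knockout and 10.04, 12.7, 10.4 and 0 RPM in C57BL/6 cells. It was 5.67-fold higher (5.4 to 5.97) and passed the filter only through the knockout. The cholesterol exporters Abca1 (647 RPM in knockout against 466 RPM in C57BL/6 cells) and Abcg1 (324.2 RPM in knockout against 211.4 RPM in C57BL/6 cells) were higher by less than 2-fold, and Npc1, which releases cholesterol from lysosomes, was 1.68-fold lower, at 144.5 to 184.2 RPM on the knockout plates and 237.7 to 282.2 RPM on the C57BL/6 plates. The cholesterol efflux list as a whole had a median log2 ratio of 0.06 over 11 members. The lipid droplet and fatty acid list lay lowest of those with 3 or more members, at -0.24, with 5 of 7 members lower. Plin2, which coats lipid droplets, had 6.41, 20.9, 35.4 and 27.6 RPM on the knockout plates, against 42.9, 34.2, 57.8 and 31.4 RPM on the C57BL/6 plates, and these plates overlapped. Of the cholesterol synthesis genes only Msmo1 was considered (0.56). The lipoprotein and receptor list had a median of 0.04, with Apoe lower and Sorl1 higher.

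Antigen presentation by MHC class I was higher in 8 of 10 considered members, 5 of them in both lanes and none 2-fold, with a median of 0.15. H2-K1 had 700, 535, 501 and 487 RPM on the knockout plates, against 311.5, 293.6, 410 and 328.4 RPM on the C57BL/6 plates, and B2m, its light chain, 4225, 3658, 3469 and 3733 RPM on the knockout plates, against 2610, 2953, 3002 and 2776 RPM on the C57BL/6 plates. Plates of the 2 groups did not overlap for either gene, though neither passed 2-fold and the share of all genes without overlap is not given here. MHC class II had 3 considered members and a median of -0.05. Complement genes lay above 0 in 7 of 8 members, 4 of them in both lanes, with a median of 0.08. C5ar1, the receptor for the complement fragment C5a, was 2.22-fold lower (64.3 RPM in knockout against 142.5 RPM in C57BL/6 cells). It was lower in both lanes, by less than 2-fold in mglia37 (log2 ratios of -0.68 in mglia37 and -1.54 in mglia38). Among Alzheimer risk genes, with a median of 0.10 over 16 members, Cd33, an inhibitory sialic acid receptor, had 1339, 1182, 1413 and 1302 RPM on the knockout plates, against 888, 1014, 948 and 1014 RPM on the C57BL/6 plates.

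The medians of the other functional lists with 3 or more considered members lay between -0.01 and 0.29. They were 0.29 for the immediate early and dissociation genes (5 considered) and 0.18 for nucleic acid sensors (11), where the RNA sensor Ifih1 was 2.3-fold lower without being called. They were 0.14 for iron (8), 0.11 for the lysosome (20), 0.10 for NF-kB feedback (9), 0.05 for the inflammasome (9), 0.04 for interferon receptors and signalling (11), 0.02 for phagocytic receptors (11) and for antioxidant genes (8), 0.01 for cytokines and chemokines (6) and -0.01 for TGF-beta signalling (11). NF-kB feedback had a negative median within each lane (-0.07 and -0.23) beside the positive pooled one. Cell cycle genes had 2 considered members, of which Cenpf was called higher, where 1.23% of all genes considered were. Cenpf passed the filter only through the knockout.

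**Figure D4:**
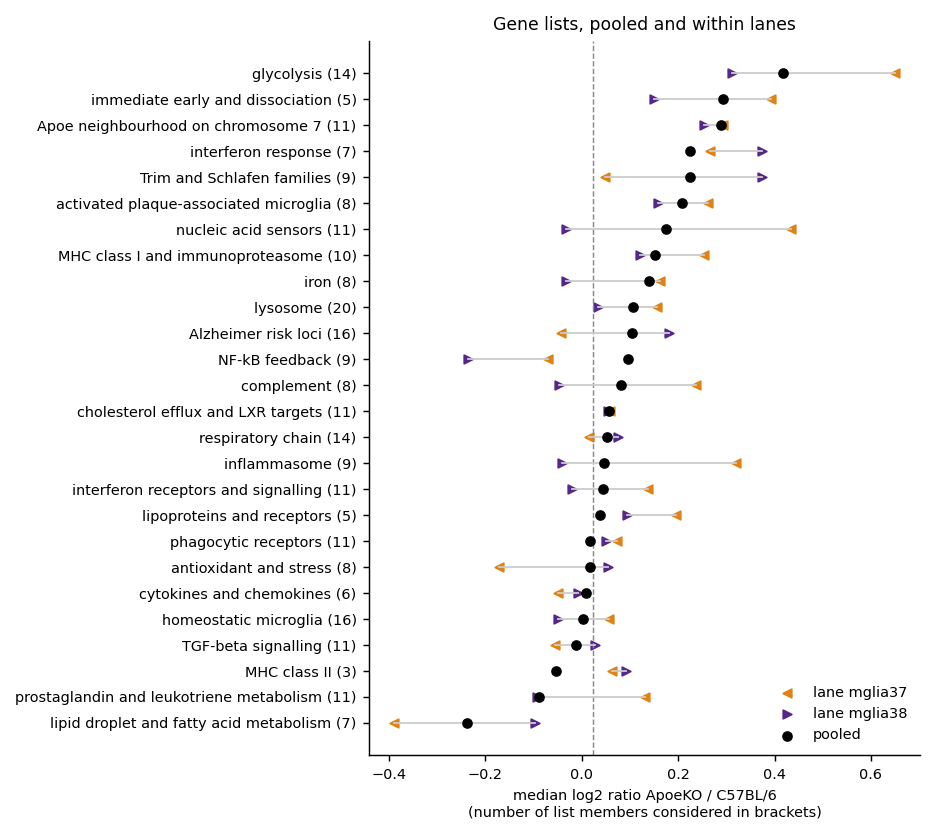
Median log2 ratio of C57BL/6-ApoeKO over C57BL/6 (x axis) for each list with at least 3 members considered (y axis, number of members in brackets), pooled (black) and within lanes mglia37 (orange) and mglia38 (purple); the dashed line is the median of all genes considered, 0.02. Glycolysis lies highest at 0.42 and lipid droplet and fatty acid metabolism lowest at -0.24, while several lists change sign between lanes.

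The same genes were then read in the groups with amyloid, which share no cells and no lane with those above. The APP/PS1-ApoeKO cells and the APP/PS1 cells also differ from each other in lane and by 1 month of age, since APP/PS1 cells of the same age and lanes were not analysed here. Of the 74 genes called higher without amyloid, 39 were at least 2-fold higher in APP/PS1-ApoeKO than in APP/PS1 cortex, where 7.66% of the 6017 genes were, and 31 in hippocampus, where 4.09% were. Of the 58 called lower, Apoe left out, 25 were at least 2-fold lower in cortex with amyloid (background 2.36%) and 25 in hippocampus (1.96%). The opposite direction at 2-fold was taken in cortex by 1 of the 74 and 3 of the 58. With the APP/PS1-ApoeKO cortex cells of mglia33 added, the counts in cortex were 41 of the 74 beside 5.57% of all genes and 22 of the 58 beside 1.28%.

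The called genes were sorted by their pattern over the 6 groups. They had been picked for a 2-fold difference between C57BL/6-ApoeKO and C57BL/6, so these patterns are partly set by that choice. Each gene was counted once, in the first pattern it met in the order given, and shares over all genes are not given here. In 41 of the called genes, 22 higher and 19 lower, the 3 knockout groups all lay at least 2-fold to 1 side of the 3 groups with Apoe. Apoe, Hpgd, Scoc, Bst2, Clgn, Sorl1, Trim5, Trim12a, Trim30d, Mxra8, Rps3a3 and Hbegf were of this kind. Hpgd, for one, had 526 RPM in APP/PS1-ApoeKO and 11.6 RPM in APP/PS1 cortex, and in hippocampus 491 RPM in APP/PS1-ApoeKO against 13.4 RPM in APP/PS1 cells. In 24 genes, 18 higher and 6 lower, C57BL/6 stood at least 2-fold apart from all 5 other groups: Spint1, Cst7, S1pr1, Nrp1, Rnase6, Rpl26 and Rtp4 were higher in all of these than in C57BL/6, and Shroom4, Ccr6, Ccdc80 and Bcl2a1d lower. In 7 genes, 1 higher (Hk1) and 6 lower (Lrrc49 and Casp8ap2 among them), C57BL/6-ApoeKO stood apart from the 5 others. The remaining 61 showed none of these patterns. The knockout and C57BL/6 groups here were each 1 sample, so what belongs to the genotype and what belongs to the mice of 1 group cannot be told apart.

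**Figure D5:**
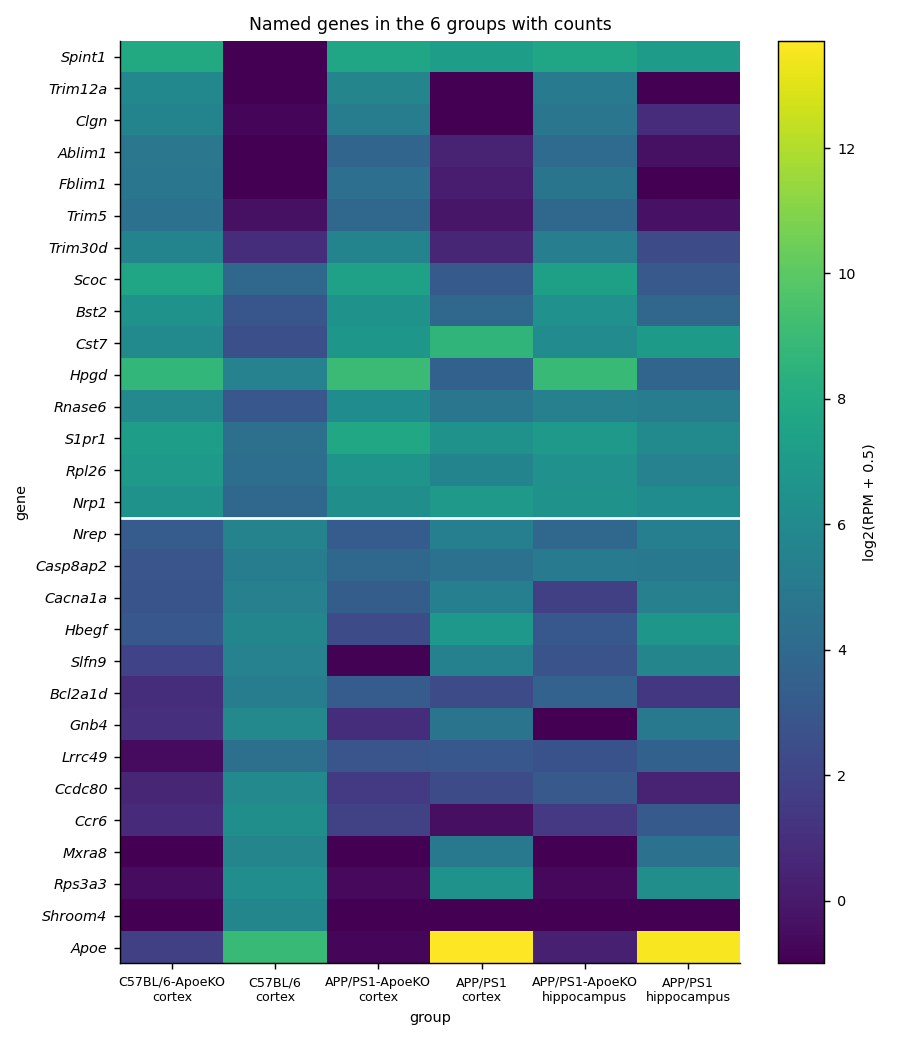
Level of 29 named genes as log2(RPM + 0.5) (colour) in the 6 groups with counts (columns, each genotype pair with the knockout on the left); rows above the white line were called higher in C57BL/6-ApoeKO than in C57BL/6, rows below it lower. Hpgd, Scoc and Bst2 are bright in all 3 knockout columns, while Spint1 is dark in C57BL/6 alone and Shroom4 bright in C57BL/6 alone.

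Position was described for the 130 called genes with a single place in GENCODE. The share called was highest on chromosome 9 (3.87% of the genes considered there) and lowest of the numbered chromosomes on chromosome 12 (0.515%), with 2.08% on chromosome 7, where Apoe lies. Within 10 Mb of Apoe 76 other genes were considered, with a median log2 ratio of 0.08. Of the 76, 1 was called, as higher, where 1.23% of all genes considered were called higher and 0.981% lower. A single gene of 76 is near those shares. That gene was Trappc6a, a subunit of the vesicle-tethering TRAPP complex within 1 Mb of Apoe, with 28.3, 31.2, 21.3 and 34.97 RPM in knockout and 8.10, 12.2, 7.17 and 10.7 RPM in C57BL/6 cells. Tomm40, also within 1 Mb, had a log2 ratio of 0.29. Of the 30 neighbours of Apoe listed, 11 were considered, with a median of 0.29. Over the 18 with at least 1 RPM on average the median was -0.06. Of these 18, 8 were higher, 3 of them at least 2-fold, and 3 were at least 2-fold lower. Such counts over all genes of that level are not given here.

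Some called genes lay side by side elsewhere in the genome. With a neighbour distance of 1 Mb, 37 of the 130 fell into 14 runs, 8 of which had a single direction. The runs were defined after the calls were seen. How many of any 130 genes considered would fall into such runs, or share a direction, is not given here. The runs are thus a list of places and not a result about position. Trim5, Trim12a and Trim30d span 104263386 to 104507849 on chromosome 7, where 3 of 5 genes considered were called. On chromosome 8, 5 of 16 were called between 83165352 and 84640246: Tbc1d9, Clgn, Scoc and Mri1 higher and Cacna1a lower. Fcrls and Fcrl1 on chromosome 3, Pml and Cd276 on chromosome 9, and Cst7 and Apmap on chromosome 2 were pairs of higher genes. Slfn9, lower, lay beside Slfn2 and Ccl9, both higher, on chromosome 11.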

How the data were processed

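Single microglia were sorted into wells and read with a modified SmartSeq2 protocol without molecular identifiers, per the labels' protocols. The authors deposited whole-number read counts per gene and cell. Per the submitters' processing notes, the build was mm10 and the tools included featureCounts 1.5.1, STAR 2.5.2 and Seurat 2.3.1; the sources used here do not say if counting was strand-specific. The deposited counts of all 639 cells summed to the totals on their labels, 198704815 reads in 313 C57BL/6-ApoeKO cells and 241536311 in 326 C57BL/6 cells; 0 count columns lacked a sample. The deposited normalised values were not used, nor were 165 APP/PS1-ApoeKO cortex cells of lane mglia33 whose labels give no read total, except as an alternative.

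Counts were summed per group, lane and titled plate and divided by total reads. The titled plate, the first digit of the well in the title, differs from the plate field of the labels. Cells of a group counted as 1 sample, so no p-value was computed; intervals are exact, 95%, and cover counting error only. A count of 0 was given the limit of 3 counts, which is one-sided and lies below the upper end of the exact interval. Genes were considered from 20 RPM and 10% of cells, with 0.5 RPM added to log2 ratios. No doublet caller was run. The gene lists (28 functional, 10 of markers, 511 genes, 505 in the table), the named genes and the comparison itself were chosen with earlier results of these data known. Named were Apoe, the 15 called genes with the largest and the 15 with the smallest log2 ratio, list members and called genes near Apoe; predicted genes and pseudogenes marked by name were counted only (5 higher, 9 lower). Some genes are part of counts, sums and medians but are not reported here by name. Fcrl1, Pml, Cd276, Apmap, Tbc1d9, Mri1 and Ccl9, and in the closing section Zfp40, were named after their values were seen. Coordinates are from GENCODE M21 (GRCm38, the assembly of mm10), and promoters from RefSeq (GRCm38.p6). Python 3.11.15, numpy 2.4.6, pandas 2.3.3, scipy 1.17.1 and, for TMM factors as an alternative scaling, R 4.3.3 with edgeR 4.0.16 were used. The ratios and intervals were tested on simulated counts, drawn as independent Poisson reads from the sums. The intervals make the same assumption, so this could not show how they hold for reads gathered in few cells. Alternatives changed the scaling, the added constant, the filter, the weight, depth and quality of cells, the lanes and the plates.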

Additional observations from a re-analysis of the deposited data

Results flagged for a closer look

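Several called genes lay at least 2-fold one way without amyloid and at least 2-fold the other way in the cortex with amyloid; these differences between the contrasts were not tested, and lanes and ages differ. Cst7 had a log2 ratio of 3.34 without amyloid and -1.82 with it: 61.6 RPM in C57BL/6-ApoeKO against 5.65 RPM in C57BL/6, and 109.2 RPM in APP/PS1-ApoeKO against 387 RPM in APP/PS1. Ccr6 had -5.49 without amyloid and 2.19 with it, where its levels were low (3.02 RPM in APP/PS1-ApoeKO, 0.271 RPM in APP/PS1). Zfp40, a zinc finger gene, had -1.55 without amyloid and 1.56 with it. In hippocampus with amyloid the log2 ratios were -0.94 for Cst7, -1.70 for Ccr6 and 0.78 for Zfp40. Ccr6 thus kept there the direction it had without amyloid (2.24 RPM in APP/PS1-ApoeKO, 8.41 RPM in APP/PS1 hippocampus).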

How the results depend on the processing

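Each group was 1 sample, so nothing here measures the spread between mice, and the reads of a rare gene often came from few cells. No paired analysis was possible because the labels name no animals and the cells of a well number are not pairs. Of the genes considered, 1.23% were called higher and 0.981% lower (74 and 59). These became 3.48% and 2.91% with no filter on low values (707 and 591 genes) and 0.857% and 0.228% at 100 RPM or more (15 and 4). They were 5.10% and 4.35% in lane mglia37 alone and 4.77% and 4.17% in mglia38 alone, where a gene had to pass in 1 lane only. Leaving out titled plates 1 to 4 of both groups in turn gave 1.65% to 1.81% higher and 1.20% to 1.41% lower. TMM scaling gave 67 and 68 genes. The interferon median of 0.22 was 0.05 to 0.38 without a plate, and 1.38 both with no filter and over members of at least 1 RPM, an alternative added after the data were seen, as was the 0.23 without the 5 cells of each group richest in the list; the glycolysis median of 0.42 was 0.37 to 0.57 without a plate. Of 469 list medians under alternatives, 436 moved by less than the spread of plates, as did 4030 of 4063 log2 ratios of named genes; 0 called values changed sign. With the APP/PS1-ApoeKO cortex cells of mglia33, an alternative added after the data were seen, the patterns over the 6 groups held 40, 23 and 7 genes in place of 41, 24 and 7, and Cst7 had -1.54 with amyloid.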
